A study of Mus musculus with 2 samples.

Results

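A set of 10 genes of the YAP/TAZ branch of the Hippo pathway was followed in mouse cells labelled primary microglia, with and without iron plus RSL3, a combination that drives ferroptosis, or death by lipid peroxidation. They were the targets Ctgf, Cyr61 and Ankrd1, the factors Yap1, Wwtr1 and Tead1, and the kinases and feedback genes Lats1, Lats2, Amotl2 and Ajuba. The 10 genes were picked by symbol and chosen from values of these same libraries, so their levels and differences are descriptions and support no test. All 10 were found once each among the 23466 rows of the table, and all passed the filter on low values. The treated library came from a culture given 1600 μM iron and 1 μM RSL3, an inactivator of the lipid peroxide reductase GPX4, and the control library from a culture given DMSO. No label used here gives the genotype, strain, age or exposure time. Since iron and RSL3 came in 1 culture, what each contributed cannot be told apart. Each condition had 1 library, so no value below has a replicate, an error between cultures or a p-value, and each difference describes these libraries rather than the conditions.

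YAP, encoded by Yap1, and TAZ, encoded by Wwtr1, are transcriptional coactivators that bind DNA through TEAD factors. The kinases LATS1 and LATS2 phosphorylate both proteins, which keeps them in the cytoplasm, and tension in the actin cytoskeleton, a stiff matrix and open cell contacts favour their entry into the nucleus. Ctgf, Cyr61 and Ankrd1 are the targets most often read as their output, while Lats2 and Amotl2 are targets that in turn restrain the coactivators. The values are messenger RNA levels, and the amount, phosphorylation and location of the proteins were not measured.

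A check of the labelled cell type found most myeloid markers near 0. Of 15 microglial and myeloid genes, 9 stayed under 1 FPKM (a level that divides fragments by transcript length and by the size of the library) in both libraries, and Aif1, Cx3cr1, Siglech, Fcrls and Sall1 were listed at 0 in both. The summed level of the 15 was 100.9 FPKM in the treated and 119.7 FPKM in the control library, with Tmem119 at 26.1 FPKM in the treated and 59.1 FPKM in the control library. Of 14 fibroblast and mural genes, 13 reached 10 FPKM in both libraries, and the 14 summed to 6552 FPKM in the treated and 6721 FPKM in the control library. Astrocyte markers summed to 43.5 FPKM in the treated and 36.2 FPKM in the control library, mostly Gja1, and neuronal markers to 18.1 FPKM in the treated and 22.9 FPKM in the control library, mostly Tubb3. The oligodendrocyte list summed to 1.82 FPKM in the treated and 3.69 FPKM in the control library, and no endothelial marker reached 1 FPKM. Ctgf, Cyr61 and Ankrd1 are genes of adherent mesenchymal cells more than of microglia, and the part of cell identity in the differences was not tested. In bulk RNA, fewer cells of a type and less RNA per cell cannot be told apart.

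Promoter sequences are shown because the targets are grouped by their link to TEAD, whose core site is GGAATG, read on the other strand as CATTCC. RefSeq windows from 250 bases before to 50 bases after a start site, on GRCm38.p6, were matched for 8 of the 10 genes, all but Ctgf and Tead1. The TEAD letters stood on either strand in a window of 7 of the 8 genes, and in 14.7% of all 32851 windows of that length. A gene was counted if any of its windows held the letters, while the share is per window. The figures are therefore not like for like, and nothing is read from the gap. Cyr61, Amotl2, Ankrd1 and Ajuba carried them upstream of the start. The 250 upstream bases of each are printed from 5′ to 3′ on the strand of the gene, with the TEAD letters in capitals. They lie at chr3:145649986-145650235 for Cyr61 (minus strand), chr9:102717554-102717803 for Amotl2 (plus), chr19:36119845-36120094 for Ankrd1 (minus) and chr14:54577662-54577911 for Ajuba (minus).
Cyr61: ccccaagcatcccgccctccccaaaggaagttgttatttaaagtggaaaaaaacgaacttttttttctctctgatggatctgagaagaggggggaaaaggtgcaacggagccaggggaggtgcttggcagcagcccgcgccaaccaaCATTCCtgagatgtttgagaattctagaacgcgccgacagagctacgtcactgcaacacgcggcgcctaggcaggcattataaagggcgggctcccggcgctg
Amotl2: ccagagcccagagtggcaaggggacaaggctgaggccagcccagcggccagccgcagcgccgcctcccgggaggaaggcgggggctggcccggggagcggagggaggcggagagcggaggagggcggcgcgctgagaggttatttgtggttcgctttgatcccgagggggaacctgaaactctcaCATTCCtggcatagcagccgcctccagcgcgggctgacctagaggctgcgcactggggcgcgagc
Ankrd1: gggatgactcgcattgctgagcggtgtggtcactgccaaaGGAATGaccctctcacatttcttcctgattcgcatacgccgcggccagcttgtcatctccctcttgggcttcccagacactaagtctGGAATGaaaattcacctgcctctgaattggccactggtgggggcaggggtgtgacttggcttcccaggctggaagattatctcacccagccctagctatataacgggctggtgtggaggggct
Ajuba: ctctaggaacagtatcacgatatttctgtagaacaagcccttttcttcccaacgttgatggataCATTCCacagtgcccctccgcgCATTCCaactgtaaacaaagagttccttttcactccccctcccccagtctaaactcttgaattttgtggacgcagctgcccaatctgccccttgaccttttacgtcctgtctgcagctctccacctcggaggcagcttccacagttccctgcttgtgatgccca

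The letters began 103 bases before the start in Cyr61 and 65 bases before it in Amotl2. Ankrd1 held them at 210 and 123 bases before the start, and Ajuba at 186 and 164 bases. The factor genes held them too, at 141 bases before the start in Yap1 and at 170 or 136 bases in Wwtr1, depending on which of its overlapping windows is counted. A stretch of 46 bases around each is printed for comparison, from chr9:8004712-8004757 for Yap1 and chr3:57576021-57576066 for Wwtr1, both on the minus strand.
Yap1: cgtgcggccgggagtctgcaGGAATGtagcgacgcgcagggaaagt
Wwtr1: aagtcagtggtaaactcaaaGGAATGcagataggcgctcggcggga

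In 1 of the windows of Lats2 the letters began just after the start, and the window of Lats1 held none. The letters stood in windows of Cyr61, Amotl2, Ankrd1, Ajuba, Lats2 and Yap1, which were lower, and of Wwtr1, which was higher. Whether the letters go with the differences was not tested. The AP-1 letters TGANTCA were in no window of the 8 genes, against 7.81% of all windows, and the CArG box bound by SRF was in none, against 1.63%. Both strands were searched, and with no match to either motif none overlapped the TEAD letters. A match is a run of letters and not a measured binding site, and sites outside these windows were not searched.

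The target genes were lower in the treated library. Ctgf (chromosome 10, 24595442 to 24598683, GRCm38), which encodes a secreted matricellular protein of the CCN family, was at 154.3 FPKM in the treated library, against 744.9 FPKM in the control library. Its level was thus 20.7% of that in the control, 4.83 times lower, a difference of -2.26 in log2(FPKM + 1), the scale of all log2 differences here. Ctgf was the 449th most abundant row in the treated library and the 56th in the control library, and its share of the FPKM total was 0.036% in the treated and 0.193% in the control library. Among 625 genes at 100 FPKM or more in the control, Ctgf had the largest fall. In that set 22 genes were at least 2-fold lower and 23 at least 2-fold higher. The set was drawn by level in the control library alone, which leaves out genes abundant only in the treated library. Ranks and counts within it are therefore descriptions, and nothing further is read from them.

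Cyr61 (chromosome 3, 145646976 to 145649981) encodes the founding CCN protein, an integrin ligand induced early by growth factors. It was at 114.3 FPKM in the treated library, against 384.0 FPKM in the control library, 3.36 times lower, with a log2 difference of -1.74. It stood 4th by size of fall among the same 625 genes, behind Ctgf, the cytoplasmic actin gene Actb and Amotl2. Ankrd1 (chromosome 19, 36111961 to 36120099), a nuclear ankyrin repeat protein also found in the sarcomere of muscle, was at 13.2 FPKM in the treated library, against 26.9 FPKM in the control library. In plain FPKM that is 2.04 times lower, but its log2 difference of -0.98 missed the 2-fold rule, because adding 1 FPKM shrinks the differences of weaker genes. The levels of the 3 targets summed to 282 FPKM in the treated and 1156 FPKM in the control library, 4.10 times lower.

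The genes of the factors differed less and not in 1 direction. Yap1 (chromosome 9, 7931999 to 8004596) was at 33.9 FPKM in the treated library, against 53.0 FPKM in the control library, a log2 difference of -0.63. Its paralogue Wwtr1 (chromosome 3, 57455649 to 57575910) was at 37.5 FPKM in the treated library, against 29.7 FPKM in the control library, a log2 difference of 0.32. Wwtr1 was the single gene of the 10 that was higher, and 86.5% of the 11771 measured genes had a lower difference than it. Measured genes are those at 1 FPKM or above in at least 1 library. The levels of both coactivator genes together were 71.4 FPKM in the treated and 82.7 FPKM in the control library, and the share of Wwtr1 in that sum was 52.5% in the treated and 35.9% in the control library. Wwtr1 was thus the more abundant of the pair in the treated library and Yap1 in the control library. Tead1 (chromosome 7, 112679318 to 112906807), which encodes the DNA-binding partner, was at 19.0 FPKM in the treated library, against 34.3 FPKM in the control library, a log2 difference of -0.81.

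Set against their factors, the targets were lower within the treated library as well. There were 2.16 FPKM of Ctgf per FPKM of Yap1 and Wwtr1 together in the treated library, and 9.01 in the control library. For Cyr61 and Yap1 the ratio was 3.37 in the treated and 7.25 in the control library. Ankrd1 was set against Tead1, the factor gene with the lowest difference (-0.81), with a ratio of 0.69 in the treated and 0.78 in the control library. The denominators differ between the targets, so their ratios are not comparable with each other. Ankrd1 was not set against Yap1 or Wwtr1. Such ratios within a library do not depend on how the 2 libraries are scaled, and without replicates they have no error.

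**Figure D1:**
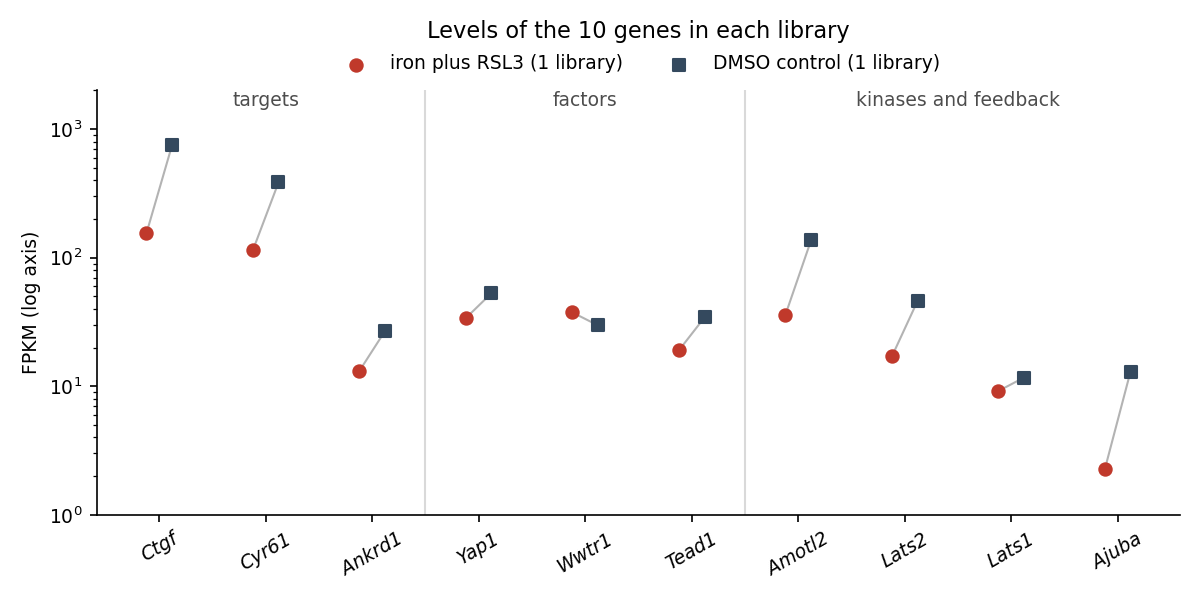
FPKM of the 10 genes (log axis), with 1 circle for the iron plus RSL3 library and 1 square for the DMSO library, joined by a line and grouped by role. Ctgf, Cyr61, Amotl2, Lats2 and Ajuba show the long lines, and Wwtr1 is the single gene whose treated value, 37.5 FPKM, lies above its control value, 29.7 FPKM.

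Feedback genes were lower by about as much as the targets, with 1 exception. Amotl2 (chromosome 9, 102716672 to 102733418) encodes an angiomotin-like scaffold that holds YAP at junctions and promotes its phosphorylation by LATS2. It was at 36.0 FPKM in the treated library, against 136.1 FPKM in the control library, 3.78 times lower, a log2 difference of -1.89. Ajuba (chromosome 14, 54567472 to 54577558), which encodes a LIM protein that binds and inhibits LATS kinases under tension, was at 2.28 FPKM in the treated library, against 13.0 FPKM in the control library. That is 5.69 times lower, in plain FPKM the largest ratio of the 10 genes, with a log2 difference of -2.09. Amotl2 and Lats2 restrain YAP and TAZ while Ajuba restrains the kinases, so the lower genes act on the coactivators in opposite ways.

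The LATS kinase genes differed from each other. Lats2 (chromosome 14, 57689662 to 57758388), the kinase gene that is itself a YAP/TAZ target, was at 17.1 FPKM in the treated library, against 46.0 FPKM in the control library, 2.69 times lower, a log2 difference of -1.38. Lats1 (chromosome 10, 7681214 to 7716460), its paralogue, was at 9.18 FPKM in the treated library, against 11.7 FPKM in the control library, a log2 difference of -0.32. The difference of Lats1 is close to the median of all measured genes, -0.38. As a result Lats2 was 1.86 times as abundant as Lats1 in the treated library and 3.93 times as abundant in the control library.

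Ranked by level, the genes ran from Ctgf and Cyr61 through Wwtr1, Amotl2, Yap1, Tead1, Lats2, Ankrd1 and Lats1 to Ajuba in the treated library. In the control library the order was Ctgf, Cyr61, Amotl2, Yap1, Lats2, Tead1, Wwtr1, Ankrd1, Ajuba and Lats1. With 1 library each, neighbours in either order, such as Amotl2 and Wwtr1 in the treated library, cannot be told apart by a spread.

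By the size rule 5 of the 10 genes, Ctgf, Cyr61, Amotl2, Lats2 and Ajuba, were at least 2-fold lower, and none was 2-fold higher. Over all measured genes 11.8% were at least 2-fold lower and 4.25% at least 2-fold higher, but the 10 genes were chosen from this contrast, so nothing is read from their share. The median log2 difference was -1.74 over the 3 targets, -1.63 over the 4 kinases and feedback genes and -0.63 over the 3 factors, beside -0.38 over all measured genes, whose quartiles were -0.73 and 0.01. Ctgf had the 12th and Ajuba the 16th lowest difference of all 11771 genes, Amotl2 the 39th, Cyr61 the 71st and Lats2 the 325th.

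**Figure D2:**
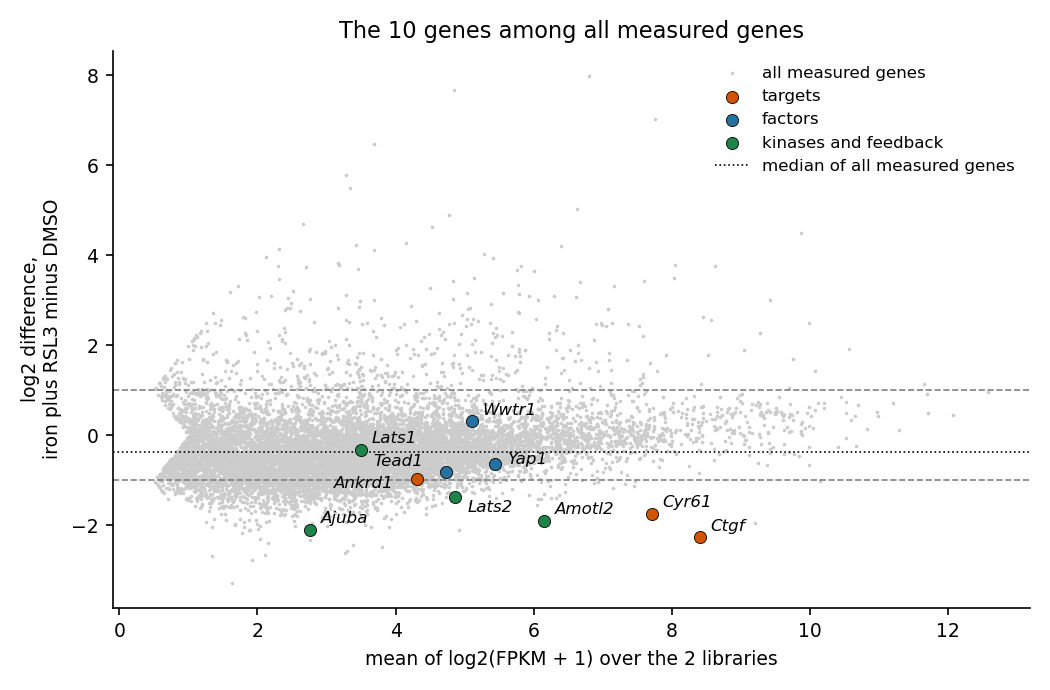
Log2 difference (iron plus RSL3 minus DMSO, in log2(FPKM + 1)) against mean level for all 11771 measured genes (grey) and the 10 genes (coloured by role), with dashed lines at 2-fold and a dotted line at the median of all genes, -0.38. Ctgf, Cyr61 and Amotl2 lie below nearly all genes of their level, whereas Lats1 lies near the dotted line.

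The values rest on different numbers of fragments. For genes with 1 annotated transcript, low values of FPKM times length in bases gathered near multiples of 54.7 (treated library) and 60.4 (control library). Below 3.5 steps, 35.8% of treated and 32.9% of control values lay within 0.05 of a whole step, where an even spread gives 10%, so whole fragments were not recovered. Each step was the candidate that made this share largest, so 10% is too low a yardstick for it. The fragment numbers below rest on these fitted steps and are rough. Taking a step as 1 fragment, the treated library was 1.10 times as deep as the control library. Ajuba, the weakest of the 10 genes in the treated library, would then have had about 142 fragments in the treated and 732 in the control library on its longest annotated transcript of 3397 bases. The ratio of treated to control FPKM, 0.176, would have an exact 95% binomial interval from 0.146 to 0.211, which covers counting error only. On its shortest annotated transcript of 2214 bases the numbers would be 92 and 477, and the interval from 0.138 to 0.219. For Wwtr1 the same estimate gave a ratio of 1.26 with an interval from 1.19 to 1.33. On these rough numbers, counting error for both genes is small beside the difference, while variation between cultures was not measured.

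Paralogues of the 10 genes showed which difference was shared within a family. Among CCN genes, which encode matricellular proteins, Wisp1 was at 52.8 FPKM in the treated and 95.3 FPKM in the control library and Wisp2 at 120.6 FPKM in the treated and 179.5 FPKM in the control library. Neither passed 2-fold, unlike Ctgf and Cyr61. Nov was at 5.15 FPKM in the treated and 5.18 FPKM in the control library, a difference that took the other sign after centring on the median ratio, and Wisp3 was under 1 FPKM in both. The CCN family summed to 447 FPKM in the treated and 1409 FPKM in the control library.

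Among the TEAD genes Tead3 passed the 2-fold rule, at 11.3 FPKM in the treated and 24.4 FPKM in the control library, and missed it after centring, at a log2 difference of -0.77. Tead4 was at 1.55 FPKM in the treated and 3.98 FPKM in the control library, 2.58 times lower in plain FPKM, against 2.15 times for Tead3. Its log2 difference of -0.97 missed the rule, but passed it with a pseudocount of 0.1 FPKM (-1.31), equal totals (-1.08) and totals without mitochondrial and top genes (-1.01). Tead2 was at 21.8 FPKM in the treated and 20.4 FPKM in the control library, a difference that turned negative with equal totals. The 4 genes summed to 53.7 FPKM in the treated and 83.0 FPKM in the control library, and Tead2 made up 40.6% of the sum in the treated and 24.6% in the control library. Tead2 was thus the most abundant TEAD transcript in the treated library and Tead1 in the control library.

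The vestigial-like genes encode cofactors that share the TEAD surface with YAP and TAZ. Vgll3 was at 19.7 FPKM in the treated and 47.6 FPKM in the control library, a log2 difference of -1.23 that shrank to -0.95 after centring. Vgll4, which competes with YAP for TEAD, was at 8.02 FPKM in the treated and 10.4 FPKM in the control library, and Vgll1 and Vgll2 were listed at 0 in both. Among the muscle ankyrin repeat genes, Ankrd23 was at 0.49 FPKM in the treated and 1.65 FPKM in the control library, and Ankrd2 was under 1 FPKM in both.

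The other angiomotins were lower than in the control by less than Amotl2. Amot was at 5.97 FPKM in the treated and 12.2 FPKM in the control library, and Amotl1 at 9.34 FPKM in the treated and 15.2 FPKM in the control library. The closest relatives of Ajuba did not share its difference: Limd1 was at 8.26 FPKM in the treated and 9.55 FPKM in the control library, and Wtip at 15.7 FPKM in the treated and 18.2 FPKM in the control library, with differences that turned positive after centring. Of the zyxin group, which sits at focal adhesions and stress fibres, Zyx was at 195.1 FPKM in the treated and 243.6 FPKM in the control library, Lpp at 14.6 FPKM in the treated and 18.7 FPKM in the control library, and Trip6 at 45.9 FPKM in the treated and 34.8 FPKM in the control library. The NDR kinase genes Stk38 (14.3 FPKM treated, 26.0 FPKM control) and Stk38l (8.47 FPKM treated, 10.7 FPKM control), relatives of the LATS kinases, stayed within 2-fold.

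**Figure D3:**
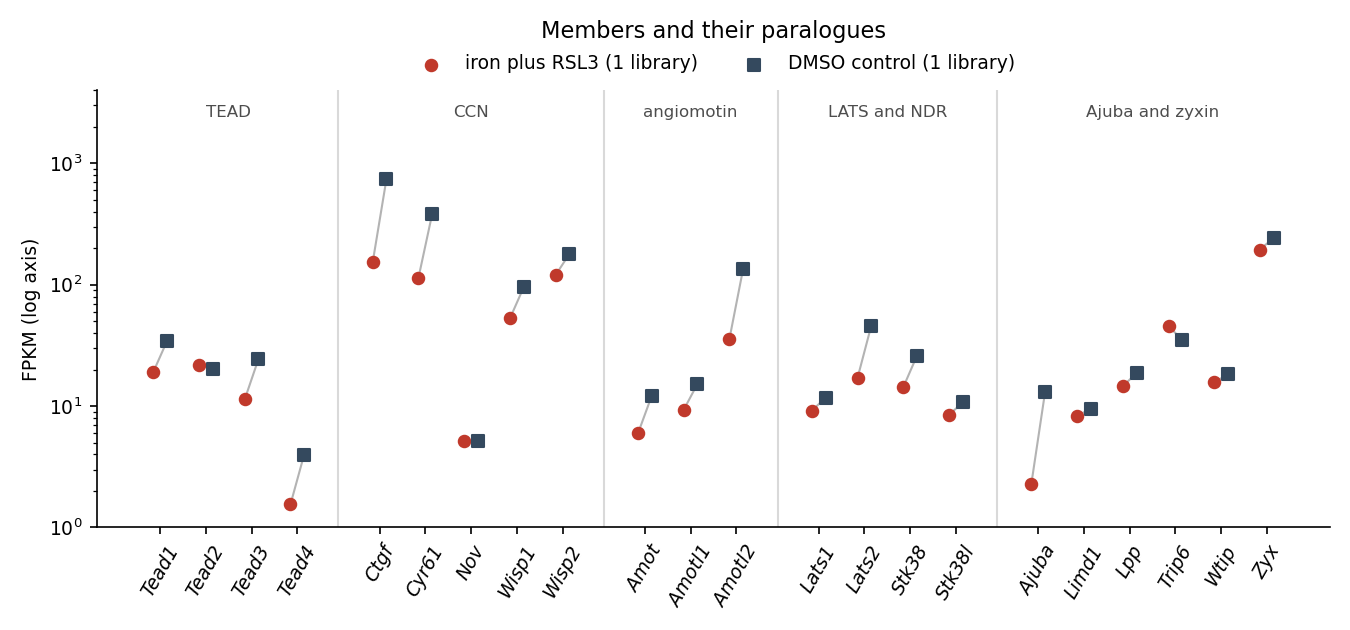
FPKM (log axis) of measured members of 5 gene families, with 1 circle for the iron plus RSL3 library and 1 square for the DMSO library. Within the CCN, angiomotin and Ajuba families the long lines belong to Ctgf, Cyr61, Amotl2 and Ajuba, while Nov, Limd1 and Wtip have short ones.

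The Hippo kinase cassette was compared through a list of 28 core genes and activators, of which 25 were measured. The list holds Lats1, Lats2 and Btrc too, so it is not confined to genes above LATS. The 2-fold rule was passed by 4 lower and 0 higher genes of the 25, beside 11.8% lower and 4.25% higher over all measured genes. The median log2 difference over the list was -0.32 beside -0.38 for all genes, and 12 of the 25 lay below that all-gene median. Besides Lats2, the lower genes were Taok2, a kinase that activates MST kinases (5.47 FPKM treated, 16.3 FPKM control), Btrc, the F-box protein that marks YAP and TAZ for degradation (3.27 FPKM treated, 9.95 FPKM control), and Nf2, the membrane-linked activator merlin (7.59 FPKM treated, 17.7 FPKM control). Nf2 missed 2-fold after centring, at -0.86. The MST kinase genes and their scaffold, named for their place in the cassette and outside the naming rule, stayed within 2-fold. Stk4 was at 5.67 FPKM in the treated and 9.71 FPKM in the control library, Stk3 at 7.45 FPKM in the treated and 10.1 FPKM in the control library, and Sav1 at 21.5 FPKM in the treated and 29.3 FPKM in the control library.

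Brakes on the cassette, the STRIPAK phosphatase complex and the Ajuba group, had 16 of 18 genes measured. Ajuba was the single gene of these at least 2-fold lower, against 11.8% of all genes, none was higher, and the median was -0.36.

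A signature of 22 YAP/TAZ targets, defined in human tumours and read here through mouse symbols, was measured in full. Of these 5 were at least 2-fold lower, 1 was at least 2-fold higher and 16 lay between, with a median of -0.56. Over all measured genes 11.8% were lower and 4.25% higher, with a median of -0.38. Of the 5 lower genes 4 were Ctgf, Cyr61, Amotl2 and Lats2, and the other was Arhgef17, at 6.35 FPKM in the treated and 18.8 FPKM in the control library. Without the 5 shared genes, the remaining 17 had 1 lower and 1 higher gene, no larger a share of lower genes than over all genes, and a median of -0.24, with 7 of 17 below the median of all measured genes. The higher gene was Gadd45a, a stress and p53 response gene, at 87.4 FPKM in the treated and 14.1 FPKM in the control library.

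Ctgf, Cyr61 and Ankrd1 are also counted among targets of SRF, a factor that is switched on by its actin-sensing MRTF partners or by ERK through TCF partners. Among 24 MRTF-type targets the lower calls numbered 9 and the higher calls 0, and the median was -0.68, beside 11.8% lower, 4.25% higher and a median of -0.38 over all genes. Without the 3 shared genes, 7 of 21 were lower and the median was -0.66. After centring, 4 of the 24 were at least 2-fold lower, against 5.63% of all genes. They were Lmod1 (-2.21), Tgfb1i1 (-1.01) and the shared genes Ctgf (-1.97) and Cyr61 (-1.45), which were chosen from this contrast. Lmod1, a nucleator of actin filaments in smooth muscle, was at 3.48 FPKM in the treated and 23.3 FPKM in the control library. Tgfb1i1, a focal adhesion adaptor, was at 44.1 FPKM in the treated and 109.9 FPKM in the control library.

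Most genes listed as ERK-responsive SRF targets went the other way. Among 13 measured the higher calls numbered 11 and the lower calls 0, and the median was 2.75, beside 4.25% higher and 11.8% lower over all genes. Atf3 was at 411 FPKM in the treated and 1.03 FPKM in the control library, Fosb at 67.3 FPKM in the treated and 0.51 FPKM in the control library, Dusp1 at 563.7 FPKM in the treated and 16.4 FPKM in the control library, and Fos at 77.2 FPKM in the treated and 3.02 FPKM in the control library. Cyr61 and Ctgf are induced early by serum like these genes, but were lower in the treated library. Srf itself, named outside the naming rule, stands on both SRF lists, at 25.2 FPKM in the treated and 41.6 FPKM in the control library. The activity of ERK and SRF was not measured, and which route raised the listed genes was not tested. Ctgf is a TGF-beta target too, and of 13 genes of that kind Ctgf was the single one at least 2-fold lower, with 2 higher and a median of -0.22, beside the same shares over all genes. The higher ones were Tgif1 (88.5 FPKM treated, 31.6 FPKM control) and Bhlhe40 (59.5 FPKM treated, 22.7 FPKM control).

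**Figure D4:**
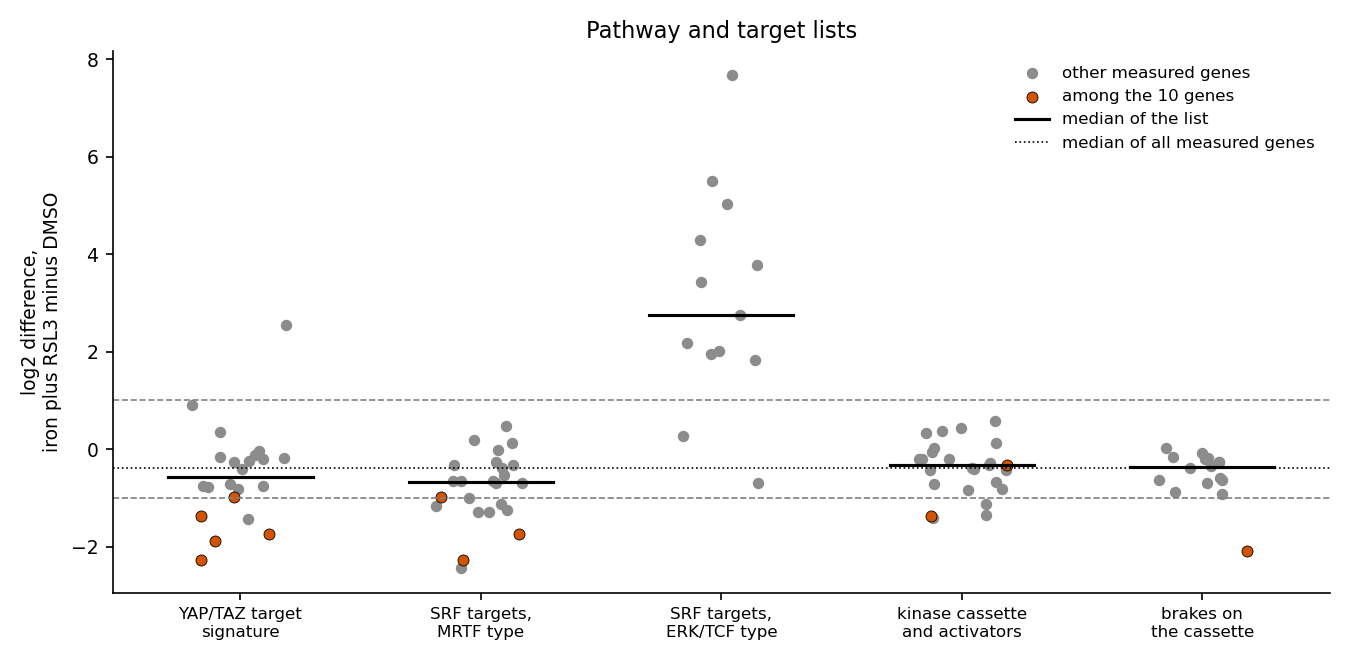
Log2 difference (iron plus RSL3 minus DMSO, in log2(FPKM + 1)) of each measured gene in 5 lists, with the median of each list (bar), the 10 genes in orange, 2-fold as dashed lines and the median of all genes as a dotted line. The ERK-responsive SRF list lies high with a median of 2.75, while the other 4 medians lie between -0.68 and -0.32.

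The genes most like the targets were sought by distance in the plane of log2(FPKM + 1) of both libraries, over 2 libraries and all annotated measured genes. Nearest to Ctgf were Csf1, at 251 FPKM in the treated and 452 FPKM in the control library, then Cyr61, then Actb at 299.8 FPKM in the treated and 1162 FPKM in the control library, at distances of 1.00, 1.05 and 1.15. Nearest to Cyr61 were Myh9, the non-muscle myosin heavy chain gene (118 FPKM treated, 259 FPKM control), the actin crosslinker gene Flna (123 FPKM treated, 249 FPKM control) and the protease gene Prss23 (109 FPKM treated, 232 FPKM control), at distances of 0.57 to 0.73. Ankrd1 had much closer neighbours, Lztr1, Smarcc1 and Myh10, at distances of 0.016 to 0.026. The nearest genes to Ctgf and Cyr61 thus lay farther off than those to Ankrd1. By level in the control library Ctgf was the 56th row, Cyr61 the 145th and Ankrd1 the 2722nd. Fewer genes lie at high levels, so such distances depend on level, and nothing is read from the gap.

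The counts were repeated under other scalings. The median ratio of the 6977 genes at 5 FPKM or more in both libraries was 0.82, so centring on it raised all differences and gave an all-gene median of -0.13. Under this centring 5 of the 10 genes were still at least 2-fold lower, against 5.63% of all measured genes, and all genes split into 761 higher and 663 lower rather than 500 and 1384. With equal totals 6 of the 10 were lower, against 17.3% of all genes, and the all-gene median was -0.51. Totals without mitochondrial and the 20 most abundant genes gave 6, against 13.8%, and a pseudocount of 0.1 FPKM gave 6, against 20.2%. With a filter of 5 FPKM there were 5, against 11.7%. The sixth gene was Ankrd1 each time, and the sign of all 10 differences was the same under these settings, with Lats1 nearest to 0 after centring at -0.05. With the smaller pseudocount Ajuba, at -2.46, had a lower difference than Ctgf, at -2.27, whereas Ctgf was the lower of the pair in the main values.

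**Figure D5:**
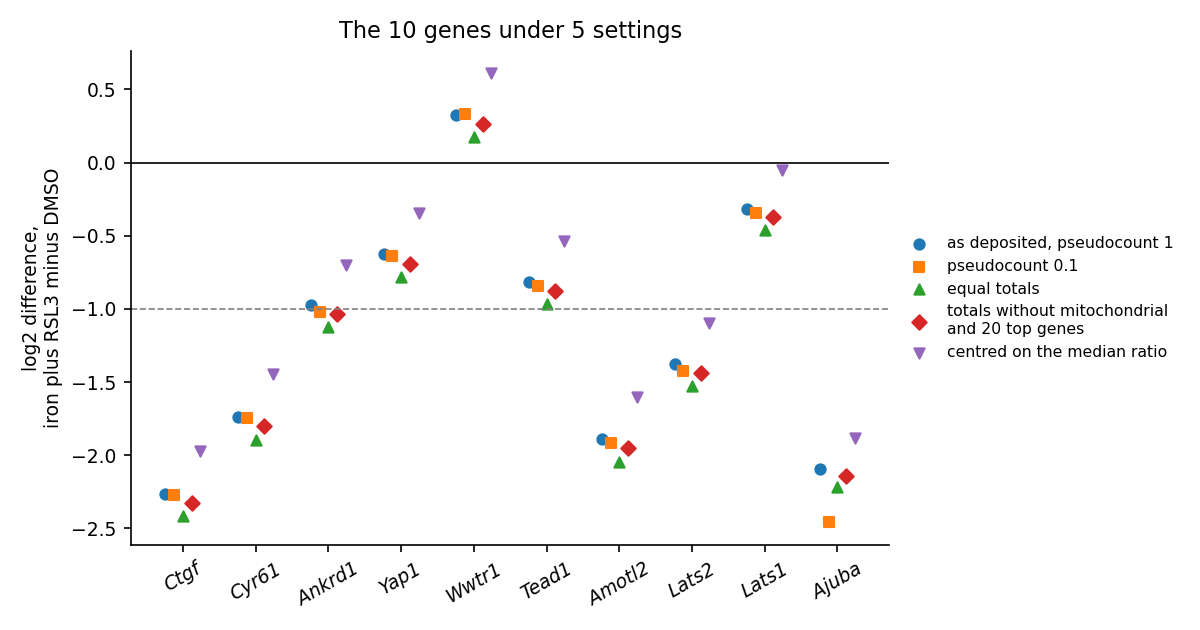
Log2 difference (iron plus RSL3 minus DMSO) of the 10 genes under 5 settings of scale and pseudocount, 1 marker per setting, with the dashed line at 2-fold lower. Ctgf, Cyr61, Amotl2, Lats2 and Ajuba lie below the dashed line under all 5, Ankrd1 lies on either side of it, and Wwtr1 lies above 0 throughout.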

How the data were processed

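RNA was taken up in TRIzol, and poly(A) libraries were made with random hexamers, per the labels' protocols, which name no strand-marking step. Annotated genes overlap Ctgf, Lats2, Yap1, Wwtr1 and Tead1, and reads from the opposite strand cannot be told apart. On the same strand lie Gm49361 over Lats2, listed at 0 FPKM in both libraries, and Gm44462 over Tead1. The authors deposited FPKM values for 23466 rows. HISAT2, StringTie, DESeq2, edgeR and GRCm38 are listed, per the submitters' processing notes, with no version, annotation or filter given in the sources used here. Of 22036 Ensembl identifiers, 22022 were found in GENCODE M21 (GRCm38), which gave gene coordinates.

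Totals were 429250 FPKM in the treated and 385141 FPKM in the control library, and depth is known only as estimated in the text. From the deposited FPKM, log2(FPKM + 1) of treated minus control was computed in Python 3.11.15 with pandas 2.3.3, over genes with 1 FPKM or more in either library. At least 2-fold on this scale counts as higher or lower. Alternatives were a pseudocount of 0.1 FPKM, a filter of 5 FPKM and 3 other scalings. The size rule and the scalings were tested on simulated data with known changes and counting noise only. That check held no variation between cultures, so it gives no error for the 2-fold calls here. Members, lists and the naming rule (all members and paralogues, up to 4 genes per direction from other lists, and nearest neighbours) were chosen with earlier results of these data known. A further list is not reported here.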

Additional observations from a re-analysis of the deposited data

How the results depend on the processing

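With 1 library per condition no replicate could be left out, and no paired analysis was possible because each condition has a single library. Lower counts for all genes were 2379 with a pseudocount of 0.1 FPKM and 663 after centring on the median ratio, and the higher count was 761 after centring. Ankrd1 passed 2-fold at -1.02 with the smaller pseudocount, -1.12 with equal totals and -1.04 with totals that leave out mitochondrial and top genes. After centring, the medians were -0.34 for factors, -1.45 for targets and -1.35 for kinases and feedback genes. Lower genes numbered 2 (smaller pseudocount) or 3 (equal totals) among brakes on the cassette, and 2 among TGF-beta targets (equal totals). After centring there were 4 lower MRTF-type targets, Ctgf and Cyr61 among them, and 2 higher genes of the 22-gene signature. Tead4 passed under the same settings as Ankrd1, at -1.31, -1.08 and -1.01. Amot passed with the smaller pseudocount (-1.01) and equal totals (-1.06), and Ankrd23 with the smaller pseudocount (-1.56). Lztr1 and Smarcc1 passed under the same settings as Ankrd1 and Myh10 under the scalings among them, while Tead3, Vgll3, Nf2, Myh9, Flna and Prss23 missed 2-fold after centring. Signs turned for Tead2 (-0.057, equal totals) and, after centring, for Nov (0.24), Wtip (0.076) and Limd1 (0.076). The causes were not tested apart from the scaling itself. FPKM gives no counts, so depth could be estimated only roughly.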
